A study of Mus musculus with 14 samples.

Results

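The comparison was between adenomas and the tissue next to them in the small intestine of an Apc Min/+ mouse (labelled APCmin/+). It used 5 of the 14 arrays of the series, chosen by their labels alone, namely 3 arrays of adenomas and 2 of adjacent tissue. Apc Min/+ mice, here on the C57BL/6J background, carry the Min nonsense mutation in 1 copy of Apc in every cell, and they develop many adenomas in the small intestine. All 5 arrays are listed by the study under 1 mouse, so that both groups share the germline mutation and the p-values measure only the spread between pieces of tissue of that animal. The pieces were whole tissue, and adenomas were visible to the eye, so that epithelium, stroma, blood vessels and infiltrating cells were measured together. Small intestine from 3 other C57BL/6J mice without tumors, on 1 array each, gives the healthy level. It was a background here and was not tested. The labels give neither the age of the animals nor the position of a piece along the intestine. For the labels Adj2 and Adj3 the names adjacent replicate 1 and adjacent replicate 2 are used below, and for Ade1 to Ade3 adenoma replicates 1 to 3.

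Apc is the scaffold of the complex that marks beta-catenin for destruction. When an intestinal cell loses the remaining normal copy of Apc, beta-catenin accumulates, enters the nucleus and works with TCF and LEF proteins to switch on Wnt target genes, as it does under Wnt ligands at the base of a normal crypt. Crypt base cells divide and give rise to absorptive enterocytes, which carry digestive enzymes and transporters on their brush border, and to secretory goblet, Paneth, enteroendocrine and tuft cells.

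Each array measured 55681 probes. Levels are given as a scaled log2 signal, the log2 of the background-subtracted signal minus the 75th percentile of the array, so that 1 unit is a doubling and a gene at 0 is as bright as that percentile. Probes differ in brightness, so levels are compared between arrays and not between genes. Between 53.3% and 58.2% of these passed the scanner's flag for signal well above background. Correlations were taken over the probes well above background on all 5 arrays of the comparison. The adenoma arrays correlated with each other at 0.989 to 0.994, and the adjacent arrays with each other at 0.979. Adjacent replicate 2 lay nearer to the adenomas (0.960 to 0.966) than adjacent replicate 1 did (0.951 to 0.961), while adjacent replicate 1 lay nearer to healthy small intestine (0.947 to 0.971 against 0.937 to 0.954). The arrays sat on 2 slides, with adjacent replicate 1 and adenoma replicates 1 and 3 on slide 1 and the other two of the comparison on slide 2.

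The adjacent pieces differed in genes that mark a place along the intestine. Fabp6, the bile acid binding protein of the ileum, had a scaled log2 signal of 8.33 on adjacent replicate 1 and of -0.60 on adjacent replicate 2, beside -1.53 to -1.17 in adenomas. Plb1, a brush border phospholipase, was at 7.33 and -2.96. Both genes were thus high on 1 adjacent array and near the adenoma level on the other. Fgf15, the hormone that ileal cells release in response to bile acids, was at 1.10 on adjacent replicate 1 and at -6.05, not well above background, on adjacent replicate 2. In the other direction, Onecut2, a transcription factor of the proximal intestine, was at 0.34 on adjacent replicate 1 and 4.42 on adjacent replicate 2, and Reg1, a secreted lectin, at 1.77 and 8.26. Adenoma replicates 1 and 2 shared a higher level than replicate 3 of the duodenal transcription factor Pdx1 (0.09 and 0.06 against -2.64), the iron reductase Cybrd1 (4.23 and 3.94 against 0.54) and the iron exporter Slc40a1 (3.79 and 3.43 against 1.18). Replicate 3 was the higher in Osr2 (-1.38 against -6.83 and -6.97), listed with the ileal genes, which was well above background on 1 adenoma array. Genes of this kind carried large differences between the groups that did not pass the test, such as -5.28 for Fabp6, with a standard error of 2.40 (limma adjusted p = 0.168). Over the 15329 genes with a symbol, 1432 (9.34%) differed by more than 1 on the log2 scale between the adjacent arrays, and 920 (6.00%) did so between the highest and the lowest adenoma array. Of 8 proximal genes tested, 6 had all adenoma arrays above both adjacent arrays and 1 had them below. Of 6 ileal genes tested, 0 had them above and 5 below. Among all genes with a symbol these shares were 34.5% and 26.2%. The median differences were 2.46 log2 units for proximal and -2.58 for ileal genes. They were 1.17 and -1.13 without adjacent replicate 1, and 3.29 and -3.54 without adjacent replicate 2. The part that the place of the pieces has in the results that follow was not tested.

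**Figure D1:**
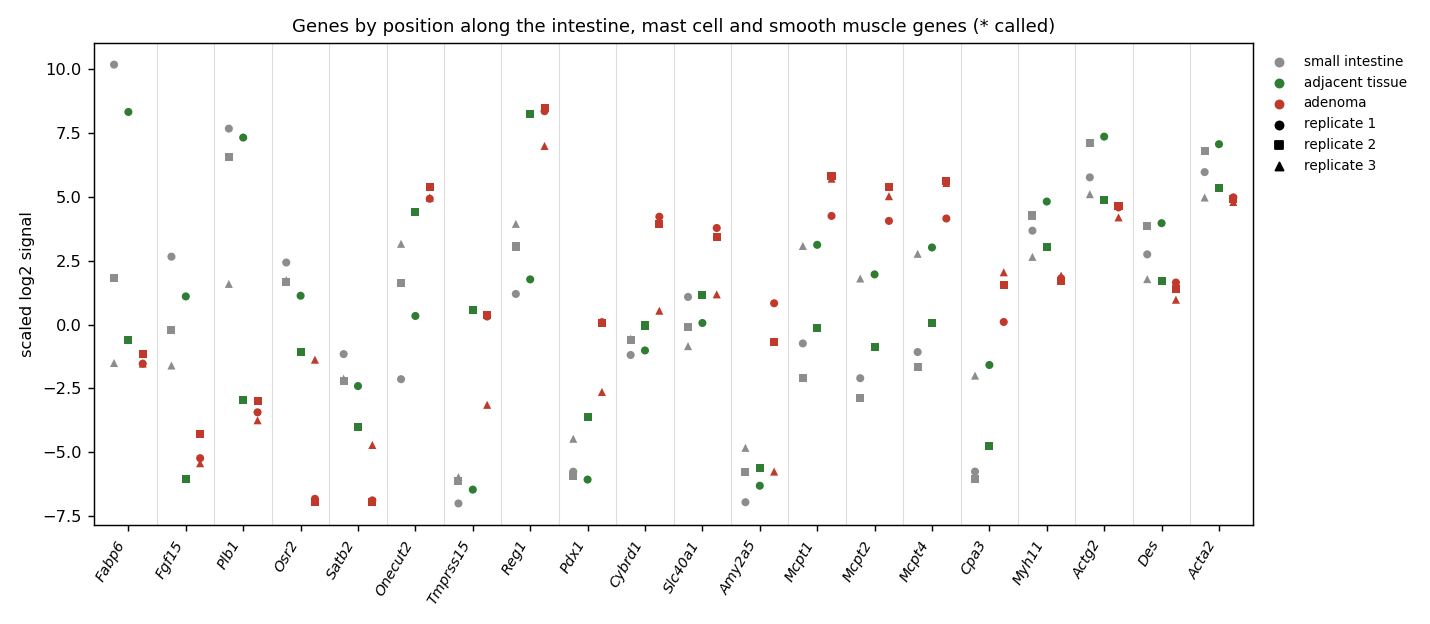
Scaled log2 signal (vertical axis) of single genes (horizontal axis) on each array of small intestine (grey), adjacent tissue (green) and adenoma (red), with the symbol shape giving the replicate. From the left the genes are ileal or distal, proximal, pancreatic (Amy2a5), mast cell (Mcpt1 to Cpa3) and smooth muscle genes; Fabp6 is at 8.33 on adjacent replicate 1 and at -0.60 on adjacent replicate 2, and Amy2a5 is at 0.83 and -0.67 on adenoma replicates 1 and 2 and at -5.76 on adenoma replicate 3.

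Genes rose as well as fell in adenomas against adjacent tissue. A gene was read from its brightest probe. It was taken as changed, or called, where limma gave a difference of 1.2 or more log2 units either way together with a Benjamini-Hochberg adjusted p no higher than 0.01. Of 15329 genes with a symbol, 459 rose in adenomas (2.99%) and 263 fell (1.72%). These shares are the background for the counts of called list members below. The lists were chosen with earlier results of these data known, so their counts are descriptions and no test. The median log2 fold change was 2.25 among those that rose and -1.86 among those that fell, and the largest were 10.08 and -4.34. Of the genes that rose, 96 were not well above background in adjacent tissue, as were 20 of those that fell in adenomas, so that their fitted differences are no measure of size. With these genes at their lower bounds the medians were 1.98 and -1.84, and 39 rose and 2 fell by more than 4 log2 units. The median over all genes with a symbol was 0.05. The mean of adjacent tissue lay between that of healthy small intestine and that of adenomas for 343 of the genes that rose and 217 of those that fell. For genes chosen by a difference between adenomas and adjacent tissue, this says only that the healthy mean lay beyond the adjacent one. The same share over all genes was not computed.

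These counts rest on few arrays. Over all 22277 gene names, 541 rose (2.43%) and 355 fell (1.59%), and without adenoma replicate 2 limma called 0 in each direction, although 6914 had an unadjusted p under 0.05. Without adenoma replicate 1 the counts were 49 and 2, without adenoma replicate 3 they were 31 and 2, and without adjacent replicate 1 they were 154 and 66. Without adjacent replicate 2 they were 633 and 629. With the number in the sample titles as a block, the count was 0 in each direction, and with the replicate number of the labels it was 59 and 8. Correcting the background by normexp gave 535 and 528, a more even split than that of the processed signal.

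**Figure D2:**
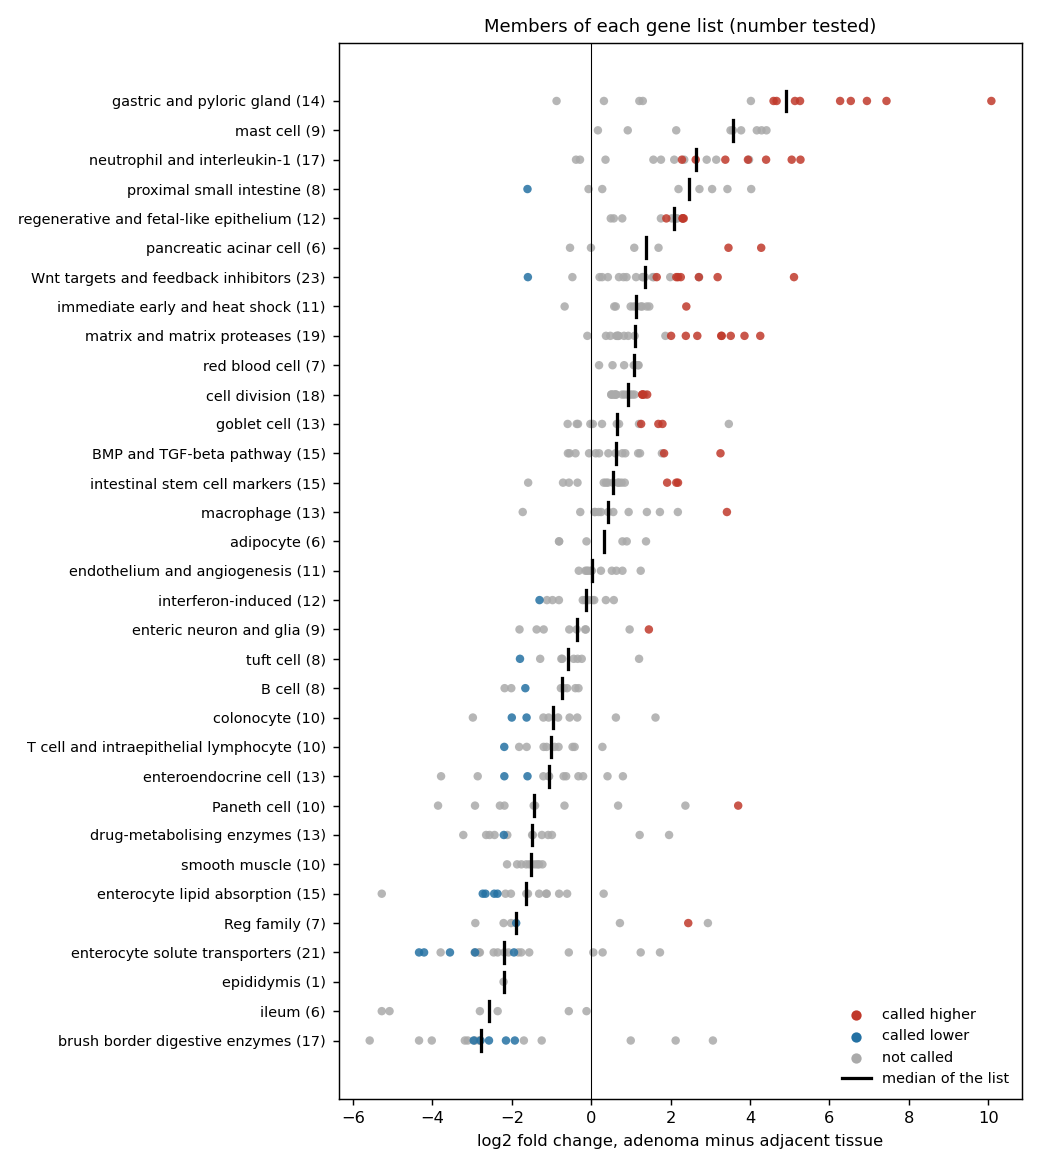
Log2 fold change between adenoma and adjacent tissue (horizontal axis) of each tested member of 33 gene lists (vertical axis, with the number tested), red where called higher, blue where called lower and grey where not called, with a black bar at the median. Gastric and pyloric gland genes have the highest median, 4.90, and brush border digestive enzymes the lowest, -2.79.

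Genes of the stomach's mucus-producing and pyloric glands had the largest rises. Of 16 listed, 14 were tested, 9 rose and 0 fell, and their median log2 fold change was 4.90, or 4.63 with a gene not well above background in adjacent tissue at its lower bound. Tff2, a trefoil peptide of gastric gland mucus, was at -4.16 and -2.40 on the adjacent arrays, of which 1 was well above background, and at 6.94, 7.28 and 6.17 on the adenoma arrays. The difference of 10.08 on the log2 scale was the largest of all called genes with a symbol, with a standard error of 0.58 and a limma adjusted p of 0.00176. Aqp5, a water channel of pyloric glands, whose probe is at chr15:99425138-99425197 (NCBI37/mm9), was at -1.64 and -2.18 in adjacent tissue and at 5.32, 5.84 and 5.43 in adenomas, with a mean of 5.53 ± 0.28 (SD, n = 3). The 3 adenoma arrays lay within 0.6 of each other and more than 6 units above both adjacent arrays, a difference of 7.44 with a standard error of 0.25 (limma adjusted p = 0.000884). Wfdc18 (chr11:83524751-83524810), a small secreted protein with a protease inhibitor fold, rose by 6.95, from 1.79 and 1.43 to 8.33, 8.79 and 8.54. Tff1, the trefoil peptide of the gastric surface, rose by 6.54, and its 2 probes gave 6.37 and 6.54. Muc6 (chr7:148819902-148819961), the mucin of deep gastric glands, rose by 6.27.

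Gkn3, a gastrokine of mucous neck cells, was already bright in adjacent tissue at 2.25 and 3.88 and reached 8.23, 8.85 and 7.89 in adenomas. The annexin Anxa10 and the adhesion molecule Vsig1 rose by 4.67 and 4.59. Pgc, the precursor of pepsin C, was not well above background on either adjacent array and at -0.57, 0.11 and -0.21 in adenomas, which is at least 16.4-fold higher. Such a bound, here and below, divides the level of the brighter group by that of the dimmer one after raising each dim array to its lowest signal well above background where the gene lay under it. The list's remaining members did not pass. Ctse, cathepsin E, was at 0.71 and 2.86 in adjacent tissue and 5.93, 5.92 and 5.57 in adenomas (limma adjusted p = 0.0124). Muc5ac, the mucin of the gastric surface, had a log2 fold change of 1.30, Gkn2 of 1.21, Gkn1 of 0.32 and Psca, well above background on 1 adenoma array, of -0.87. Cldn18, the claudin of gastric tight junctions, and Sox2, a transcription factor of the stomach, were not tested, since neither was well above background on all arrays of either group. In healthy small intestine these genes varied between animals, and small intestine replicate 3 was the highest of the 3 for each gene that rose, although Vsig1 and Pgc were not well above background on any healthy array. Tff2 was at -6.70, -5.15 and 0.82 there, and Wfdc18 at -3.31, -5.54 and 2.58. The median of the list was 4.05 without adjacent replicate 1 and 5.62 without adjacent replicate 2.

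**Figure D3:**
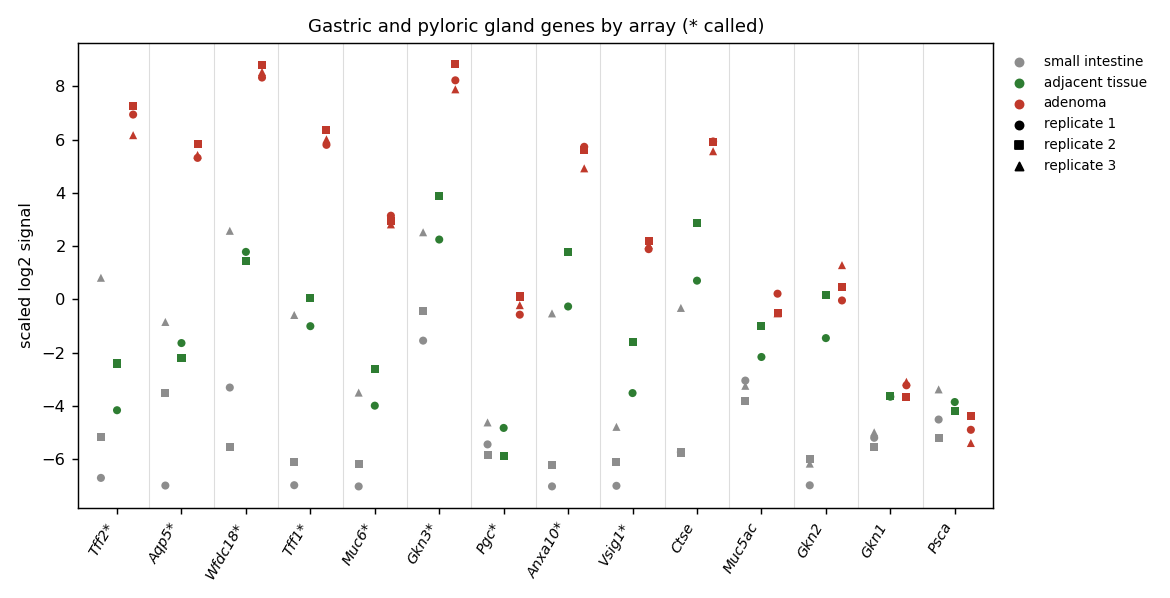
Scaled log2 signal (vertical axis) of the 14 tested gastric and pyloric gland genes (horizontal axis, ordered by log2 fold change, called genes starred) on each array of small intestine (grey), adjacent tissue (green) and adenoma (red), with shapes for replicates. For the 9 starred genes every adenoma array lies above both adjacent arrays, and small intestine replicate 3 (triangle) lies above the other small intestine arrays.

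Of the Wnt list, which holds target genes of beta-catenin and inhibitors that Wnt signaling itself induces, 23 of 24 members were tested, 7 rose and 1 fell. The median was 1.35, and 18 of the 23 had every adenoma array above both adjacent arrays, as did 34.5% of all genes with a symbol. The secreted inhibitor Wif1 (chr10:120537079-120537138), which binds Wnt ligands, was at -0.16 and -1.54 in adjacent tissue and at 3.75, 4.06 and 4.96 in adenomas. The difference was 5.11 on the log2 scale with a standard error of 0.52 (limma adjusted p = 0.00555), and the adenoma values did not overlap with either the adjacent ones or those of healthy tissue, at -3.01, -3.21 and -1.67. Lef1, a partner of beta-catenin on DNA, was at -1.79 and -0.68 in adjacent tissue and at 1.70, 1.99 and 2.15 in adenomas, a rise of 3.18. Healthy tissue was lower still, at -3.89 to -3.71. Nkd1, which restrains Wnt signaling inside the cell, rose by 2.71, while its other tested probe (1.93) did not pass. Cd44, an adhesion receptor of crypt cells, was at 1.56 and 1.84 in adjacent tissue and at 3.93, 3.96 and 3.98 in adenomas, and its 4 probes gave 2.26 to 2.98. Sox9, a transcription factor of the crypt base, rose by 2.19, Lgr5, the R-spondin receptor of crypt base stem cells, by 2.14, and Dkk3, a relative of the Dickkopf inhibitors, by 1.65.

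Sfrp5, a secreted Wnt inhibitor of the frizzled-related family, was the member that fell, from -0.92 and -0.63 to -2.24, -2.42 and -2.46 (log2 fold change -1.60, limma adjusted p = 0.00617). Other members had positive values that did not pass at this threshold. They include the homeobox gene Prox1 (2.72, adjusted p = 0.0187), Sp5 (1.99, adjusted p = 0.0317), Tcf7 (1.58), the Wnt-inactivating enzyme Notum (1.55, adjusted p = 0.0107) and the ubiquitin ligases Rnf43 (1.35) and Znrf3 (1.31), which remove Wnt receptors. Axin2, a scaffold of the destruction complex that is widely used as a readout of Wnt signaling, was at 0.30 and -0.16 in adjacent tissue and 1.16, 0.30 and 1.42 in adenomas (log2 fold change 0.89, limma adjusted p = 0.135), and its other tested probe gave 0.08. Myc was at 0.49 and 1.57 against 1.42, 1.10 and 1.38, and Ascl2, a transcription factor of stem cells, at 2.36 and 3.70 against 3.79, 3.85 and 3.54. For both, adjacent replicate 2 lay within or close to the range of the adenomas and adjacent replicate 1 below it. At an adjusted p of at most 0.05, 13 members of the list rose and 1 fell, beside 5.73% and 5.24% of all genes with a symbol.

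**Figure D4:**
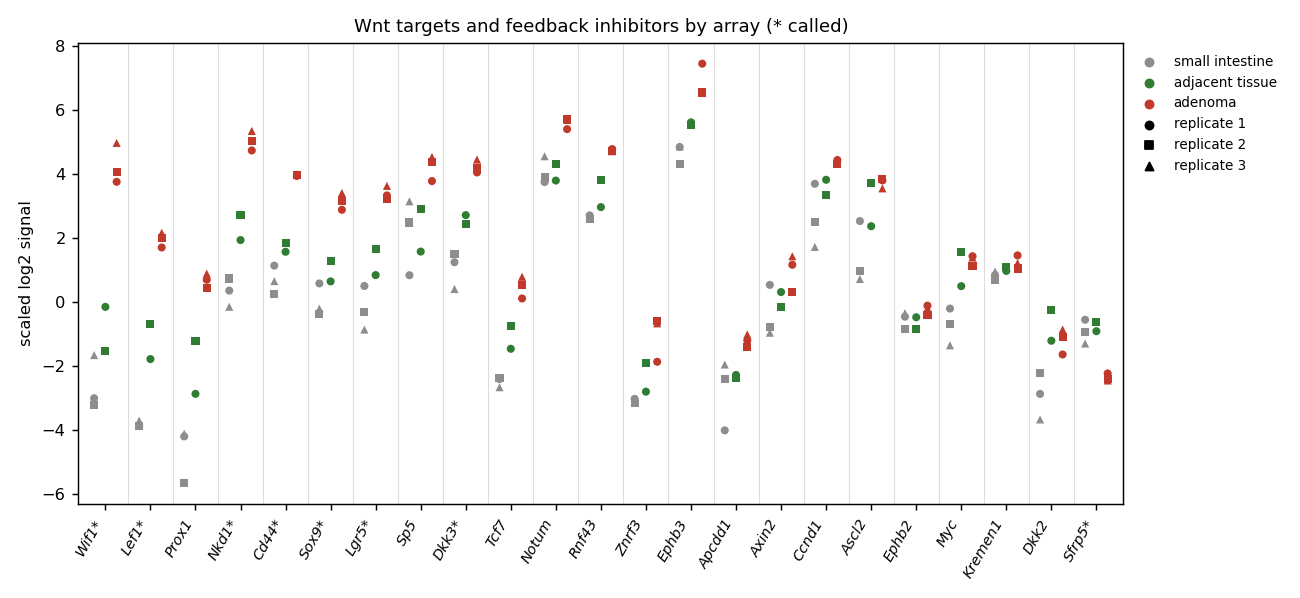
Scaled log2 signal (vertical axis) of the 23 tested Wnt targets and feedback inhibitors (horizontal axis, ordered by log2 fold change, called genes starred) on each array of small intestine (grey), adjacent tissue (green) and adenoma (red), with shapes for replicates. The adjacent arrays of Wif1, Lef1 and Nkd1 lie between the healthy and the adenoma arrays, and Sfrp5 is the starred gene in which adenomas are lowest.

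TCF and LEF proteins bind the letters ATCAAAG or TTCAAAG, and both were searched on both strands in RefSeq promoters of GRCm38.p6, each from 250 bases before to 50 after a gene's start. A match was held by 8.7% of all 32851 promoters. By gene, it was held by 9.9% of the 27025 genes with a promoter in the table and by 7.4% of the 11998 such genes that were tested. The share was 9.4% among those that rose in adenomas and 6.0% among those that fell. In the Wnt list the match was held by 1 of 14 such genes (7.1%). That gene was Sp5, a zinc finger factor and beta-catenin target, and the match is a description of these letters alone. It was held by 0 of 7 promoters of 4 Wnt list genes that rose. The bases before the start of Sp5 (chr2:70474673-70474922, plus strand) are shown with the match in capitals, where the match begins 104 bases before the start, and those of Wif1 (chr10:121033754-121034003, plus strand), the list's largest rise, hold no match.
Sp5: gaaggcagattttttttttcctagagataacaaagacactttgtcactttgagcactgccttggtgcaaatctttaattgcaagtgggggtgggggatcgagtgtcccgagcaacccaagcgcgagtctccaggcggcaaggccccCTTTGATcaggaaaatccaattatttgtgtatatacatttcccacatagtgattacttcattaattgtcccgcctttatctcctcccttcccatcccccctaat
Wif1: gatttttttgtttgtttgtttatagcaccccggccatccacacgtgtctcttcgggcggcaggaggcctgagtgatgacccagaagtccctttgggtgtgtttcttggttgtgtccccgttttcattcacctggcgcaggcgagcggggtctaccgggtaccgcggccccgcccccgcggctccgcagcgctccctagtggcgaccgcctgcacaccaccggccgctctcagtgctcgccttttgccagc

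Stem cell markers as a whole moved less than the Wnt list that they partly share. Of 15 tested, 3 rose, which were Sox9, Lgr5 and the receptor Tnfrsf19 (1.91), and 0 fell, with a median of 0.55. The other tested probe of Tnfrsf19 gave 1.57 and did not pass. Olfm4, a glycoprotein secreted by crypt base stem cells, had an opposite sign, at 3.20 and 2.37 in adjacent tissue and 0.72, 1.29 and 1.58 in adenomas (log2 fold change -1.59, limma adjusted p = 0.0327). Its adenoma values lay below both adjacent ones and within the healthy range of 1.16 to 2.79 or under it. Smoc2 had a log2 fold change of 0.67, Lrig1 of 0.76, Bmi1 of 0.37 and Hopx of 0.32, and none of these passed.

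All 18 cell division genes had each adenoma array above both adjacent arrays, as did 34.5% of all genes with a symbol. The differences were small and 4 passed, with a median of 0.93. Rrm2, a subunit of the enzyme that makes deoxyribonucleotides, was at 2.45 and 2.73 in adjacent tissue and 4.09, 4.05 and 3.86 in adenomas (log2 fold change 1.41, limma adjusted p = 0.00766). The replication helicase subunits Mcm3 and Mcm5 rose by 1.31 and 1.29 and the mitotic kinase Plk1 by 1.28. Mki67, a common marker of dividing cells, was at 4.51 and 4.78 in adjacent tissue and 5.07, 5.05 and 5.33 in adenomas (log2 fold change 0.50, limma adjusted p = 0.0984). Ccnb1, cyclin B1, met the threshold on p (adjusted p = 0.00962) but not that on size, at 1.09. For Cdk1 the 3 probes ranged from -0.35 to 1.34 and did not agree.

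The changed digestive enzymes and transporters of enterocytes all fell in adenomas. Of 17 brush border enzymes, 5 fell and 0 rose (median -2.79), and 14 had all adenoma arrays below both adjacent arrays, as did 26.2% of all genes with a symbol. Anpep, aminopeptidase N, was at 9.29 and 9.12 in adjacent tissue and at 5.76, 6.46 and 7.03 in adenomas (difference -2.79 log2 units with a standard error of 0.37, limma adjusted p = 0.00931). The peptidase Dpp4 fell by 2.96, the meprin subunit Mep1b by 2.15 and Mgam, maltase-glucoamylase, by 1.93, with 1 of its 2 probes called. In these genes adenoma replicate 1 was the lowest and replicate 3 the highest adenoma array. Sis, sucrase-isomaltase (-3.11, adjusted p = 0.0115), Ace (-2.93, adjusted p = 0.0107) and Lct, lactase (-2.82, adjusted p = 0.0149), were as far apart or farther and just missed the threshold. Naaladl1 (-4.34), Mep1a (-4.02) and Enpep (-3.18) had larger differences and did not pass. On adjacent replicates 1 and 2, Naaladl1 was at 5.64 and 2.89, Mep1a at 6.56 and 3.79, and Enpep at 4.68 and 3.99. The 3 members with a positive difference were Alpi, intestinal alkaline phosphatase (1.0), Akp3, a duodenal form of it (3.06), and Tmprss15, enteropeptidase, which activates trypsinogen in the duodenum (2.13). None of these passed. Akp3 was at 1.10 and 0.76 on adenoma replicates 1 and 2 and at -3.88 on replicate 3, and Tmprss15 at 0.31 and 0.36 against -3.15, with adjacent tissue at -6.47, not well above background, and 0.57.

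Among 21 solute transporters and their partners, 5 fell and 0 rose, with a median of -2.19. Slc13a2 (chr11:78210807-78210866), which takes up dicarboxylates and citrate, was at 5.01 and 4.20 in adjacent tissue and at -0.73, 0.27 and 1.25 in adenomas. Its difference of -4.34 on the log2 scale was the largest fall of a called gene with a symbol (standard error 0.59, limma adjusted p = 0.00997). Cubn (chr2:13197978-13198037), cubilin, the receptor for intrinsic factor with vitamin B12, went from 5.04 and 4.25 to -0.28, 0.28 and 1.31, a change of -4.21. Its 2 probes gave -4.21 and -4.19, and 1 of them passed. Pdzk1, a scaffold that holds transporters at the brush border, fell by 3.56, from 6.03 and 5.49 to 1.39, 2.38 and 2.83. Slc5a1 (chr5:33504561-33504620), the sodium-glucose cotransporter, had the most even values, at 2.51 and 2.79 against -0.45, -0.38 and -0.01 (difference -2.93 log2 units with a standard error of 0.20, limma adjusted p = 0.00265), and Slc2a5, the fructose transporter, fell by 1.95. The amnionless protein Amn (-2.94), which anchors cubilin, the peptide transporter Slc15a1 (-2.83) and the neutral amino acid transporter Slc6a19 (-2.46) were lower on all adenoma arrays and did not pass. Slc9a3, the apical sodium-proton exchanger, and the nucleoside transporter Slc28a2 were higher on all adenoma arrays, at 1.25 and 1.73, and did not pass either. Slc46a1, the proton-coupled folate transporter, was at 3.70 and 6.04 in adjacent tissue and 4.85, 5.69 and 4.23 in adenomas, which overlap.

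**Figure D5:**
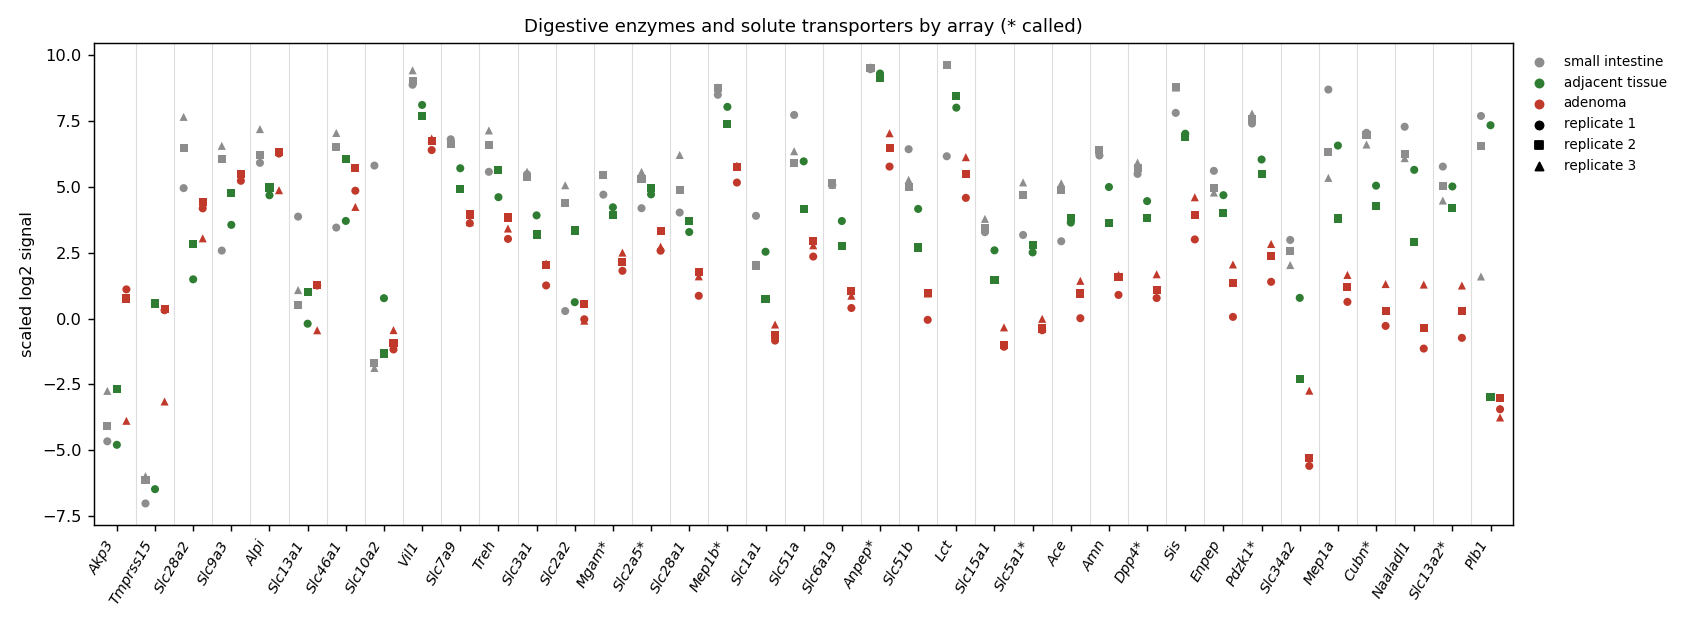
Scaled log2 signal (vertical axis) of 37 tested digestive enzymes, solute transporters and their partners (horizontal axis, ordered by log2 fold change, called genes starred) on each array of small intestine (grey), adjacent tissue (green) and adenoma (red), with shapes for replicates. The 9 starred genes have all adenoma arrays below both adjacent arrays, and Plb1 at the right end is high on adjacent replicate 1 alone among the 5 arrays.

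Of 15 lipid absorption genes, 4 fell and 0 rose, with a median of -1.64. They were Npc1l1, the cholesterol uptake protein (-2.73), Apoc3, an apolipoprotein (-2.66), and Abcg8 and Abcg5, which together pump plant sterols back into the lumen (-2.44 and -2.36). Npc1l1 was at 5.25 and 4.59 in adjacent tissue and at 1.87, 2.23 and 2.46 in adenomas, below the 6.14 to 7.11 of healthy tissue. The fatty acid binding protein Fabp2 (-2.02) and the triglyceride transfer protein Mttp (-1.31) did not pass. Among 13 drug-metabolising enzymes 1 fell, the cytochrome Cyp3a25 (-2.20), and the median was -1.49. That median was -2.15 without adjacent replicate 1 and -1.32 without adjacent replicate 2. In bulk tissue, fewer enterocytes and less RNA per enterocyte cannot be told apart. Vil1, villin, the actin bundler of the brush border in all enterocytes, was at 8.10 and 7.69 in adjacent tissue and 6.39, 6.73 and 6.83 in adenomas (-1.25, adjusted p = 0.0178).

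Secretory lineages did not move together. Among goblet cell markers 3 of 13 rose and 0 fell, with a median of 0.64. That median was 1.03 without adjacent replicate 1 and 0.26 without adjacent replicate 2. Agr2, which folds mucins in the endoplasmic reticulum, was at 6.76 and 6.10 in adjacent tissue and 8.16, 8.37 and 8.13 in adenomas (log2 fold change 1.79, limma adjusted p = 0.00923). The goblet transcription factor Spdef rose by 1.69 and the kallikrein Klk1 by 1.26. The main mucin Muc2 (0.70) and the trefoil peptide Tff3 (0.04) did not pass, nor did Retnlb, a goblet cell peptide, at -1.37 and 1.21 against 3.40, 3.83 and 2.92 (3.47, adjusted p = 0.0302). In Clca1, Zg16 and Tff3 the adjacent arrays were farther apart than the group means, with adjacent replicate 2 the lower.

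In the Paneth cell list 1 of 10 tested genes rose and 0 fell, yet the median was -1.43. The riser was Habp2, a serine protease that binds hyaluronan, from 2.68 and 1.2 to 5.30, 5.57 and 6.06 (log2 fold change 3.70, limma adjusted p = 0.00841). The listed genes with a negative difference were higher on adjacent replicate 1 than on adjacent replicate 2, by amounts that varied. Defa3 was at 10.59 and 9.59 there and Itln1 at 9.74 and 8.63, and both were lower on all adenoma arrays. Pla2g2a, of the same list, was higher on all adenoma arrays and did not pass (2.37, limma adjusted p = 0.0167). Defa21 was at 9.85 on adjacent replicate 1, 5.46 on adjacent replicate 2 and 3.22, 3.07 and 5.09 in adenomas, and Ang4, an antimicrobial ribonuclease, at 7.30 and 4.49 against 2.50, 2.75 and 3.65. Lysozyme, Lyz1, was at 9.32 and 7.55 against 7.84, 7.49 and 7.94, and matrilysin, Mmp7, at 4.67 and 3.97 against 4.90, 5.04 and 5.06. The median of the list was -0.70 without adjacent replicate 1 and -1.96 without adjacent replicate 2.

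Among enteroendocrine genes 2 of 13 fell and 0 rose, with a median of -1.06. Sst, somatostatin, fell by 2.19, from 3.11 and 2.19 to 0.41, 0.44 and 0.53, and Gip, the incretin of the proximal intestine, fell by 1.61. Chga, chromogranin A, a protein of all endocrine granules, had a value of -1.21 (adjusted p = 0.0193). Nts, neurotensin, and Gcg, proglucagon, both more abundant toward the ileum, had larger differences (-3.78 and -2.86) and were higher on adjacent replicate 1 than on adjacent replicate 2, at 3.33 against 0.45 and 1.86 against -0.04. Among 8 tuft cell genes tested 1 fell, the lectin Siglecf (-1.79), whose other tested probe gave -2.465 and did not pass. Dclk1, a kinase used as a tuft cell marker, had a positive value of 1.21 (adjusted p = 0.0208). The 3 tested probes of Dclk1 gave 1.21 to 1.52, and 1 of them passed. Of the defining tuft cell genes Pou2f3, Gnat3 and Il25, none was well above background on any of the 5 arrays.

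In the Reg family of secreted lectins, 1 of 7 rose and 1 fell. Reg4, found in secretory cells, rose by 2.44, from 4.02 and 4.29 to 6.39, 6.50 and 6.91. Reg3d fell by 1.89. The antibacterial lectins Reg3b and Reg3g were at 9.62 and 8.99, and 8.95 and 7.96, in adjacent tissue, with log2 fold changes of -2.21 (adjusted p = 0.0247) and -2.02 (adjusted p = 0.0261).

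Among genes of neutrophils and of the interleukin-1 response, 7 of 17 tested rose in adenomas and 0 fell, with a median of 2.63, or 2.34 with 3 genes at their lower bounds. The median was 1.83 with normexp correction and 2.0 in the authors' normalized values, with 5 genes called higher in each. Il11 (chr7:4724847-4724906), a cytokine of the interleukin-6 family made by stromal cells, was at -2.07 and -2.65 in adjacent tissue and at 3.33, 3.42 and 2.0 in adenomas (difference 5.27 log2 units with a standard error of 0.47, limma adjusted p = 0.00454). Il6 was not well above background in adjacent tissue, and its adenoma values of 0.37, -0.45 and -1.46 were at least 13.4-fold higher. Lcn2, lipocalin 2, an iron-sequestering protein of neutrophils and inflamed epithelium, rose by 4.41. The subunits of calprotectin, S100a8 and S100a9, which fill the cytoplasm of neutrophils, rose by 3.95 and 3.38. S100a8 was well above background on 1 adjacent array, and S100a9 went from -1.91 and -1.46 to 1.62, 1.53 and 1.93. Il1b rose by 2.63. Mmp8, neutrophil collagenase, passed as well, but its level in adenomas, from -4.33 to -4.07, exceeded the bound by only 1.07-fold. The chemokines Cxcl1 (3.98) and Cxcl5 (2.34) and the prostaglandin synthase Ptgs2 (2.91) did not pass, nor did Cxcl2, which was not well above background in adjacent tissue (at least 3.48-fold higher). Cxcl1 was at -5.37, not well above background, on adjacent replicate 1 and -1.55 on adjacent replicate 2. Csf3r, the receptor for the neutrophil growth factor, had a value of -0.28, and Cxcr2, a defining neutrophil receptor, was not well above background on any of the 5 arrays.

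Among macrophage genes 1 of 13 rose, the monocyte chemokine Ccl2 (3.42), with a median of 0.43. That median was 0.75 without adjacent replicate 1, 0.10 without adjacent replicate 2 and 0.05 with normexp correction. The complement subunits C1qa and C1qb (0.25 and 0.08) and Adgre1, a macrophage surface marker (0.18), overlapped between the groups, and Arg1 was higher on all adenoma arrays (2.18, adjusted p = 0.021). Among T cell genes 1 of 10 tested fell, Cd8a, at -2.77 and -1.82 against -4.63, -4.40 and -4.42 (log2 fold change -2.19, limma adjusted p = 0.00982). It was well above background on 2 of the adenoma arrays, and its other probe gave -1.15. In 8 of the 10 all adenoma arrays lay below both adjacent arrays, as in 26.2% of all genes with a symbol. The 8 include Cd3g (-1.82) and the granzyme Gzma (-1.63), and the median of the list was -1.02. Of 8 B cell genes tested, the follicular chemokine receptor Cxcr5 fell, from -4.08 and -4.14 to below background, at least 1.58-fold, and the median was -0.73, or -0.32 in the authors' normalized values. Adjacent tissue lay below healthy small intestine in Cd3g, at -0.54 and 0.34 against 0.71 to 1.64.

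Of 9 mast cell genes tested 0 passed, although their median was 3.57. It was 4.72 without adjacent replicate 1 and 2.15 without adjacent replicate 2, and 2.27 with normexp correction. The mucosal mast cell protease Mcpt2 was at 1.97 and -0.89 in adjacent tissue and 4.06, 5.39 and 5.03 in adenomas (log2 fold change 4.29, limma adjusted p = 0.0254). Mcpt1 was at 3.12 and -0.14 against 4.26, 5.83 and 5.72, and Cpa3, a carboxypeptidase of mast cell granules, at -1.59 and, not well above background, -4.78 against 0.10, 1.55 and 2.05. Adjacent replicate 1 was higher than adjacent replicate 2, and adenoma replicate 1 lower than the other adenomas, in each of these genes. In 7 of 9 all adenoma arrays lay above both adjacent arrays, as in 34.5% of all genes with a symbol. The tryptase Tpsb2 had a difference of 2.14 (adjusted p = 0.021), and the chymase Cma1, not well above background in adjacent tissue, was at least 11.7-fold higher.

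Smooth muscle genes differed between the adjacent pieces. All 10 had every adenoma array below both adjacent arrays, as did 26.2% of all genes with a symbol, and 0 passed. The median of -1.53 became -0.47 without adjacent replicate 1 and -2.51 without adjacent replicate 2. Acta2, smooth muscle actin, was at 7.07 on adjacent replicate 1, at 5.36 on adjacent replicate 2 and at 4.99, 4.91 and 4.81 in adenomas. Myh11, the smooth muscle myosin, was at 4.82 and 3.05 against 1.81, 1.72 and 1.92. The log2 of the summed signal of the list was 9.44 and 7.43 in adjacent tissue and 6.80 to 7.08 in adenomas. The part that muscle in the adjacent pieces has in the other differences was not tested. Of 9 neural and glial genes tested, 1 rose, S100b (1.45), and 0 fell, with a median of -0.37. That median was 0.01 without adjacent replicate 1 and -0.73 without adjacent replicate 2.

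Of 19 genes of the matrix and its turnover, 8 rose and 0 fell, with a median of 1.09. All adenoma arrays lay above both adjacent arrays in 17 of them, as in 34.5% of all genes with a symbol. The stromal proteases Mmp13 and Mmp10 rose by 3.52 and 2.67, and Mmp3, not well above background in adjacent tissue, was at least 11-fold higher. Plat (chr8:23892531-23892590), tissue plasminogen activator, went from -0.15 and -0.45 to 3.77, 3.44 and 3.47, a difference of 3.86 with a standard error of 0.19 (limma adjusted p = 0.00133), and the urokinase receptor Plaur rose by 2.38. Timp1, which inhibits metalloproteases, rose by 3.29, from -0.65 and 0.73 to 3.35, 3.35 and 3.29. Of the collagens, Col1a1 rose by 2.01, while Col1a2 (1.09), Col3a1 (0.69) and Col4a1 (0.48) did not pass.

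Of 12 genes linked to regenerating and fetal intestinal epithelium, 4 rose and 0 fell, with a median of 2.08. The alarmin Il33 was at 1.72 and 2.42 in adjacent tissue and 4.56, 4.30 and 4.35 in adenomas, a rise of 2.33 (limma adjusted p = 0.00594). Among the others, the calcium-binding S100a6 rose by 2.30 and Ly6d by 1.89. Clu, clusterin, a marker of reviving stem cells, was at 5.99 and 7.55 in adjacent tissue and 8.90, 9.18 and 8.72 in adenomas (2.17, adjusted p = 0.0291), and already far above its healthy level of 1.91 to 3.92 in adjacent tissue. The epidermal growth factor receptor ligands Ereg (2.30, adjusted p = 0.0106) and Areg (2.14, adjusted p = 0.0109) just missed the threshold, and Ly6a, a marker of fetal-like epithelium, was at 0.78. In the BMP and TGF-beta pathway 2 of 15 rose, Inhba, the activin A subunit (3.26), and the ligand Bmp7 (1.83). Tgfb1 met the threshold on p but not on size (1.18, adjusted p = 0.00982), and the BMP antagonists Grem1 (0.11), Nog (-0.40) and Chrd (-0.06) overlapped between the groups.

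Most called genes lay outside the lists, 407 of those that rose and 238 of those that fell. Among the 12 largest rises of genes well above background on all 5 arrays were also Nptx2, neuronal pentraxin 2, from -3.58 and -3.81 to 1.97, 1.51 and 2.10 (log2 fold change 5.55, limma adjusted p = 0.00113), and the acute phase proteins Serpina3n (5.47) and Hp, haptoglobin (5.37). Otop2, a proton channel, went from 0.14 and -0.43 to 5.02, 5.28 and 5.21, a rise of 5.31, with healthy tissue at -0.31 to 0.97. Faim2, an inhibitor of Fas-mediated death, rose by 5.27 and the membrane protein Tmem45a by 5.23. The largest bounds among genes not well above background in adjacent tissue were at least 41.7-fold for Uts2, urotensin 2, a vasoactive peptide, 25.3-fold for Dio2, which activates thyroid hormone, 24.5-fold for Pcolce2, an enhancer of procollagen processing, 22.2-fold for the chitinase Chit1 and 18.9-fold for Mup19, a member of the major urinary protein cluster whose near-identical copies may share its probe.

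Among the 12 largest falls outside the lists of enterocyte functions were Unc93a (-3.66), the tubulin ligase family member Ttll2 (-3.30), the inositol transporter Slc5a11 (-3.06), the lysoplasmalogenase Tmem86b (-2.96), the cytochrome Cyp4v3 (-2.92) and the gene model Gm10499 (-3.12). Il22ra2, a soluble receptor that blocks interleukin 22, was at -0.51 and -0.20 in adjacent tissue and -3.97, -3.52 and -3.35 in adenomas (log2 fold change -3.25, limma adjusted p = 0.00297). Its adjacent level was above that of healthy tissue, at -3.31 to -1.17, whereas Unc93a and Slc5a11 were at or above their adjacent level in at least 2 of the 3 healthy arrays. The largest bounds of falls, to a level not well above background on any adenoma array, were at least 7.65-fold for Acsm5, an acyl-CoA synthetase, 5.56-fold for Zdhhc19, a palmitoyltransferase, 5.22-fold for the carnosine dipeptidase Cndp1, 5.18-fold for the AMP deaminase Ampd1 and 3.88-fold for D230017M19Rik.

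Apc itself was at -1.62 and -1.50 in adjacent tissue, at -2.30, -1.90 and -1.77 in adenomas and at -1.92, -1.60 and -1.55 in healthy small intestine (log2 fold change -0.43, standard error 0.21, limma adjusted p = 0.184). Min is a point mutation and the probe does not read it, so that this level is no check of the genotype.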

How the data were processed

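RNA of 14 samples was hybridized to 1 Agilent SurePrint G3 mouse array each, of which 5 enter the comparison. The authors deposited the scanner output, made with Feature Extraction 10.7.3.1. Its processed signal is a background-subtracted intensity not normalized across arrays, and flags mark spots above background or saturated. A further deposited table holds log2 values normalized by the authors, by a method not given in the sources used here, beside fold changes and p-values of their own comparisons, which were not used.

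After removal of control and outlier spots, processed signals were put on the log2 scale, averaged per probe and centred on the 75th percentile per array. Of 55681 probes, 26582 were named through RefSeq accessions and 29099 kept the name in the files. Probe positions are in NCBI37/mm9, and no annotation of that build was used. Groups came from the sample labels. The 29734 probes that passed the background flag on all arrays of either group were tested with limma 3.58.1 in R 4.3.3 on the 5 arrays, with Benjamini-Hochberg adjustment over these probes. A gene was read from its brightest probe. The thresholds, 1.2 and 0.01, are those of the study's methods. The number of arrays limits the precision.

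The comparison and the gene lists were chosen with earlier results of these data known. Genes named are Apc, listed genes and, in each direction, the 12 called genes of largest difference that were measured, unsaturated and without overlap on all 5 arrays, and the 5 with the largest bound. In a list, members were named by the size of their difference or after their values were seen. Some members of large difference are not named. Alternatives were normexp correction (offset 50), quantile normalization, the authors' table, other filters, thresholds and probes, all 5 groups in the fit, slide or replicate blocks, an intensity trend, a floor and the omission of each array. A few listed genes count in their lists and are not reported here by name.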

Additional observations from a re-analysis of the deposited data

How the results depend on the processing

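The arrays decide the number of genes called. Leaving out each array in turn gave 0 to 633 overexpressed gene names, against 541, and 0 to 629 underexpressed ones, against 355, with the 0 in both directions without adenoma replicate 2. The no filter setting, which tests every probe, gave 54 and 1, the fit of all 5 groups 163 and 36, and the slide block 124 and 28. The replicate block gave 59 and 8, and the block by title number 0 in each, although 6149 names then had an unadjusted p under 0.05. An adjusted p of 0.05 gave 1036 and 1096. In the other alternatives (normexp, quantile, the authors' table, all-array filter, trend, floor, a log2 fold change of 1, any probe) counts stayed within 1.5 times. The arrays come from 1 mouse and share only numbers. Deviations from the group means correlated at -0.0869 and 0.00364 for the same replicate number and at -0.00364 and -0.11 for the same title number, so that the numbers were not taken as pairs. Of 100 called genes that are named or listed, 0 were called without adenoma replicate 2 or with the title block, 8 without adenoma replicate 3, 14 without adenoma replicate 1, 15 with no filter, 22 with the replicate block, 27 with all 5 groups, 28 with the slide block, 31 without adjacent replicate 1, 66 without adjacent replicate 2, 81 with quantile normalization, 88 with the authors' values and 94 with normexp. Depth limits genes below background on 1 side, 96 that rose and 20 that fell, to bounds.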

Other observations

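Several gene groups outside the comparison's main lists were measured as well. Of 11 immediate early and heat shock genes tested, Ier3, an early response gene that affects survival, rose from -0.04 and 0.44 to 2.62, 2.68 and 2.48 (log2 fold change 2.40, limma adjusted p = 0.00369). Fos (1.46), Atf3 (1.40) and Dusp1 (1.14) were higher on all adenoma arrays and did not pass, and Fos and Atf3 were at or above the adenoma level on most healthy arrays. The median of interferon-induced genes, -0.14, changed sign with the adjacent arrays, at -0.81 without adjacent replicate 1 and 0.31 without adjacent replicate 2. Of 12 tested the GTPase Gbp2 fell (-1.30), while Isg15 overlapped between the groups, at 2.77 and 3.98 against 3.99, 3.51 and 2.42. In healthy tissue Isg15 was higher, at 4.42 to 6.26. Of 11 endothelial genes tested none passed, and Pecam1 (-0.07), Vwf (-0.11) and Vegfa (0.01) were near 0.

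Among colonocyte genes 2 of 10 fell, the chloride-bicarbonate exchanger Slc26a3 (-2.0) and the water channel Aqp4 (-1.63). Of 6 pancreatic acinar genes tested, Pnliprp1, a lipase-related protein, and the elastase Cela1 rose by 4.28 and 3.46, and both were high on all 3 adenoma arrays. The defining acinar genes Amy2a5 and Cpa1 were not tested, and were at 0.83 and -0.67, and -2.18 and -2.89, on adenoma replicates 1 and 2 but at -5.76 and -5.89 on adenoma replicate 3. Of 6 adipocyte genes tested none passed, and Adipoq was not well above background on most of the 5 arrays. Of 7 red cell genes tested 0 passed, with a median of 1.07 over the 7. Of these, 6, among them the globins, were higher on all adenoma arrays than on both adjacent arrays, as were 34.5% of all genes with a symbol. Adjacent tissue was above healthy tissue for Hbb-bt, at 5.36 and 4.74 against 0.74 to 2.45.

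Gpx5, a glutathione peroxidase known from the epididymis, was at 3.84 and 4.51 in adjacent tissue, 1.92, 2.39 and 1.59 in adenomas and not well above background on any healthy array (log2 fold change -2.21, limma adjusted p = 0.0109). Other epididymis genes on the array, among them Crisp1, Lcn5, Lcn8, Lcn9, Adam7 and Defb2 were not well above background on any of the 5 arrays.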
